A study of Mus musculus with 6 samples.

Results

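The translation initiation factor genes described here are the 55 gene symbols that begin with Eif1 to Eif6 among 24346 symbols in the deposited tables, with 90 of the 34535 transcript models. The rule takes them by name, but it was set with earlier results of these data known. The FPKM of all models with the same symbol was summed in each library. Levels are in FPKM, fragments scaled to transcript length and to the mapped fragments of the library, so levels of different genes are compared per length. The libraries came from primary stromal cells of C57BL/6 mouse prostates, taken at 8 to 12 weeks of age. In the 3 S37A libraries the cells had been infected with the FU-CGW lentivirus carrying S37A β-catenin, a form with a phosphorylation site for its degradation removed. The cells of the 3 vector libraries carry only the label vec for their genotype. All cells grew on collagen in serum-containing medium with 1e-10 M dihydrotestosterone, an androgen. Whether libraries of 1 group stem from different animals or cultures is not stated, and the spread behind each p-value may therefore be technical. In bulk RNA, fewer cells of a type and less RNA per cell cannot be told apart.

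Initiation factors bring the initiator tRNA, the small ribosomal subunit and the messenger RNA together and place the ribosome at the start codon. The factor eIF2 carries the initiator tRNA, eIF2B recharges eIF2 with GTP, and 4 known kinases restrain this step by phosphorylating the alpha subunit of eIF2 under stress. The cap-binding complex eIF4F, made of eIF4E, eIF4G and eIF4A, recruits the messenger RNA, and the 4E-binding proteins compete with eIF4G for eIF4E. The large scaffold eIF3 joins the parts on the small subunit.

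The gene that had been introduced was checked first. Ctnnb1, which encodes β-catenin, was listed at 132, 144 and 146 FPKM in the S37A libraries and 116, 99.1 and 116 FPKM in the vector libraries, and the groups did not overlap. Its difference on the log2(FPKM + 1) scale was 0.35 (SE 0.0704, limma adjusted p = 0.0158), and an exact two-sided permutation test returned p = 0.1, which no comparison of 3 with 3 libraries can go below. The call was lost without S37A replicate 2 (0.33, limma adjusted p = 0.0567) and without S37A replicate 3 (0.32, limma adjusted p = 0.0618), within 0.0101 to 0.0618 over all alternatives. The widths of the deposited confidence intervals corresponded to 38.7 to 44.6 M fragments in the S37A libraries and 44.1 to 48.6 M in the vector libraries. Marker genes of stroma summed to 8600 to 8870 FPKM in the S37A libraries and 7460 to 7930 FPKM in the vector libraries, and of 12 only Lum was under 0.5 FPKM on average. The 13 myeloid markers in the tables summed to 60.8 to 69.0 FPKM in S37A and 23.8 to 30.1 FPKM in vector. Of 10 myeloid markers tested 8 were called higher and 0 lower, while Ptprc, Adgre1 and Aif1 were under 0.5 FPKM on average. Of 11 stromal markers tested 4 were called higher (Thy1, Acta2, Des and Myh11) and 1 lower (Pdgfra). The epithelial, endothelial and glial lists had 0 called of 6, 5 and 2 tested. Over all genes tested, 6.06% were called higher and 19.9% lower. The epithelial, endothelial and glial lists stood at 10.5 to 20.5, 26.6 to 27.8 and 2.15 to 3.09 FPKM in S37A and at 13.1 to 19.2, 27.4 to 30.0 and 2.64 to 3.25 FPKM in vector, and no marker was at 0 in every library. The part of these other cells in the differences below was not tested.

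Of the 54 initiation factor genes tested, 12 were called lower in S37A and 0 were called higher. In mean FPKM, Eif2ak1 fell by 7.97%, the smallest change among the 12, and Eif4ebp3 fell by 21.2%, the largest. The called genes were the translational repressors Eif4ebp1, Eif4ebp3 and Eif4enif1, and the start-codon and eIF2 pathway genes Eif1b, Eif2s3y, Eif5 and Eif2ak1. The others were Eif1ad, which encodes an eIF1A domain protein, the eIF3 subunits Eif3c and Eif3g, the helicase cofactor Eif4b, and Eif5a. A call means an adjusted p under 0.05 in limma with Benjamini-Hochberg adjustment over all 12022 genes tested. The 12 lower genes were 22.2% of the members tested, beside 19.9% of all genes tested; higher calls were 0 of 54, beside 6.06% of all genes. The share of members called lower was thus near that of all genes. At an unadjusted p under 0.05 in the same limma fit, 25 members were lower (46.3%, beside 32.4% of all genes) and 1, Eif3j1, was higher (1.85%, beside 10.3%). On FPKM as deposited, differences were negative in 48 of 54 members (88.9%), beside 69.5% of all genes. The median difference was -0.09 for the members and -0.07 for all genes tested, on the log2 scale. All 3 S37A libraries lay below all 3 vector libraries in 24 of the 54 members (44.4%), beside 36.5% of all genes, and above them in 0 members, beside 11.3% of all genes. Eif4e1b, an oocyte-associated relative of eIF4E, was listed at 0 in all 6 libraries in each of its 7 models and was not tested. Members with a single model, Eif3j1 aside, rested on at least 206 inferred fragments in each library, a number that bears on counting error only.

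**Figure D1:**
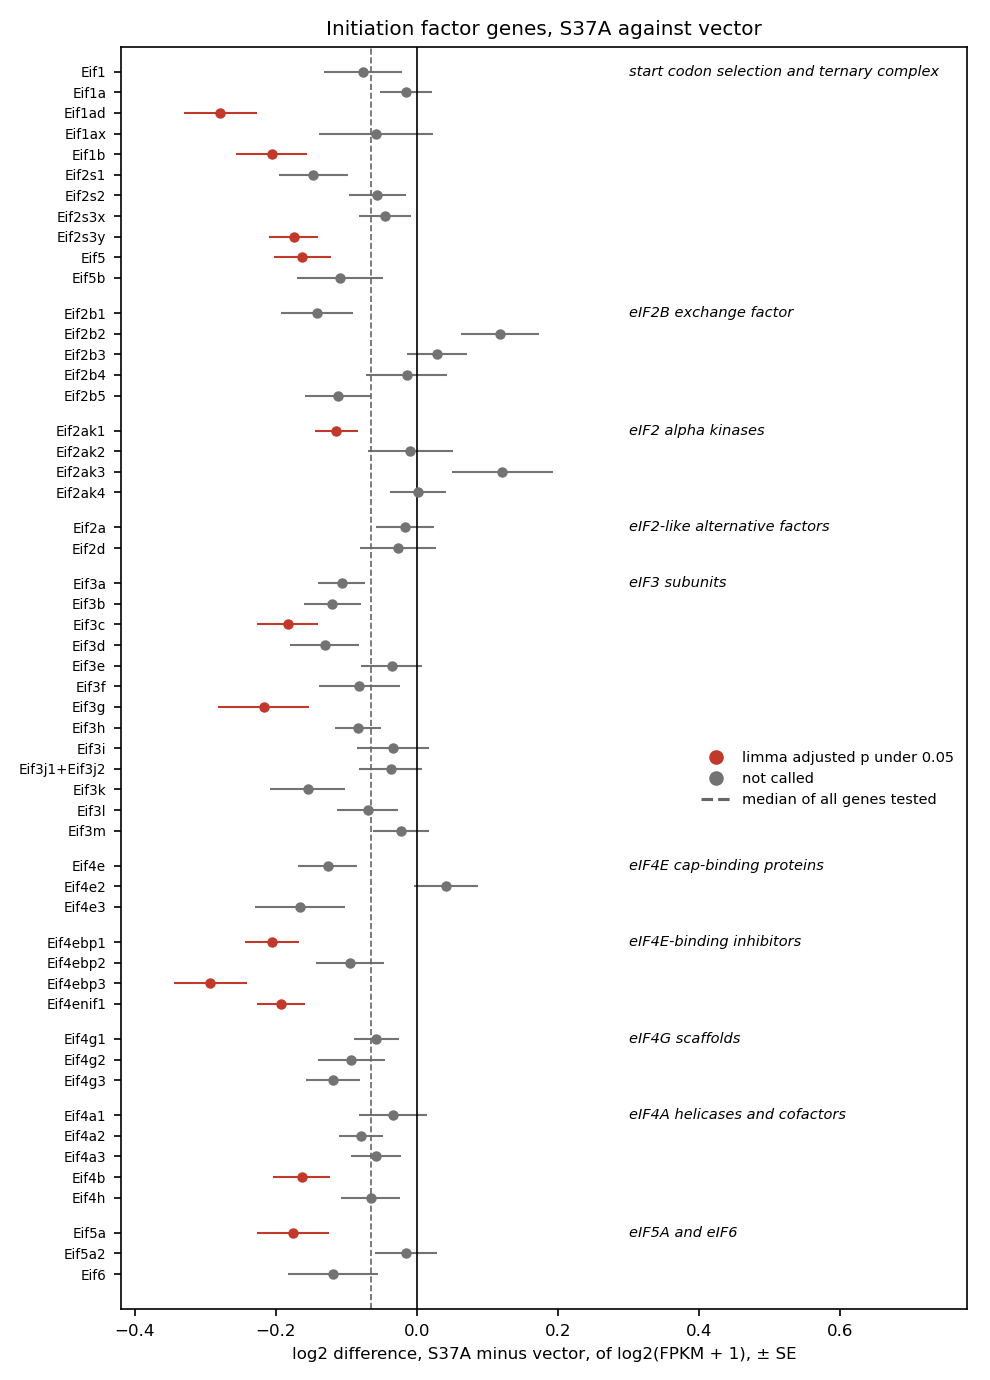
Log2 difference of each tested initiation factor gene, S37A minus vector, of log2(FPKM + 1), with the limma standard error, n = 3 libraries a group; Eif3j1 and Eif3j2 are drawn as their sum. Red points are the 12 genes called lower; 0 genes were called higher, and the dashed line is the median of all genes tested, -0.07.

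**Figure D2:**
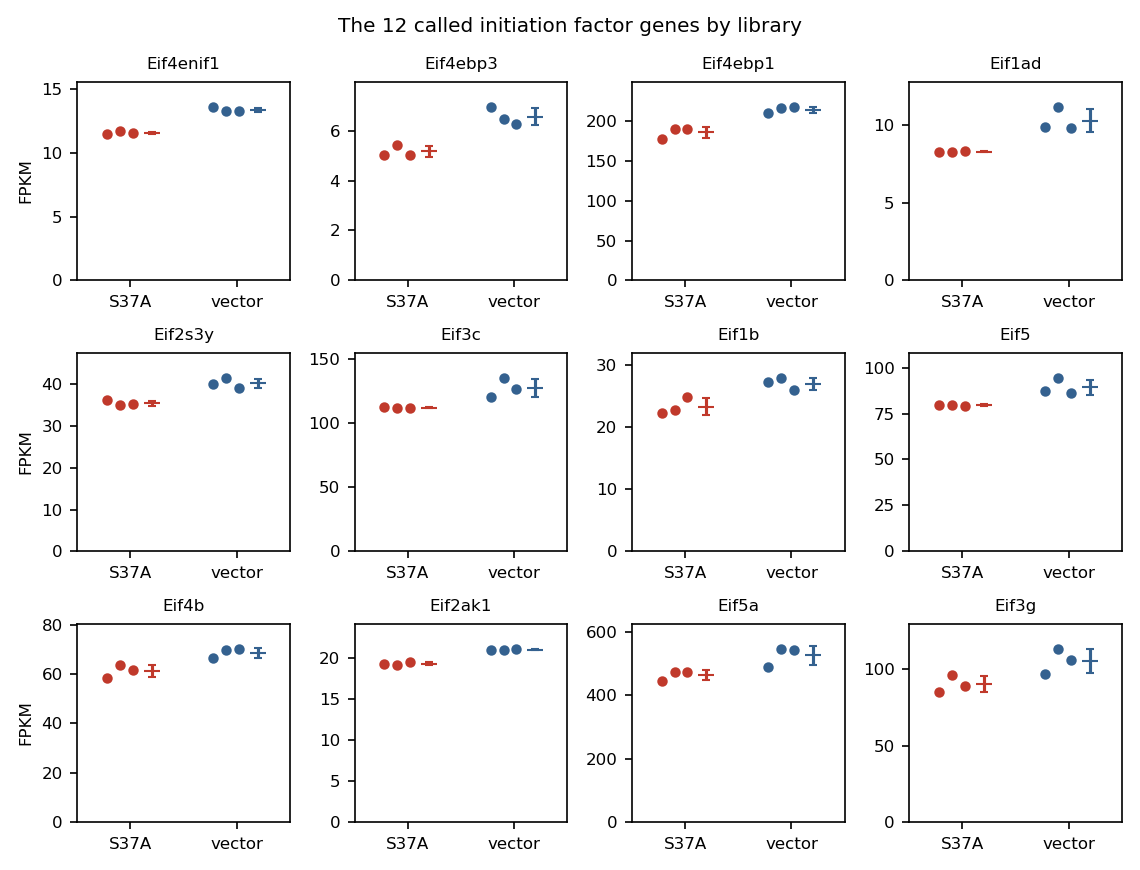
FPKM of the 12 called genes in each library, with S37A at the left and vector at the right of each panel, axes starting at 0, n = 3 a group; the crossed bar beside the points is the mean ± SD. In each of the 12 panels the 3 S37A libraries lie below the 3 vector libraries, as in 36.5% of all genes tested. The 12 were picked by their calls on these libraries, so the separation adds no support.

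The repressors of the cap-binding protein held the members with the smallest p. Eif4ebp1, which encodes the 4E-binding protein 1 that mTOR kinase phosphorylates to release eIF4E, lies at chr8:27260329-27276674 (mm10, plus strand). It was listed at 177, 189.9 and 190.2 FPKM in the S37A libraries and 210.1, 216 and 217 FPKM in the vector libraries. All S37A libraries were lower, and Eif4ebp1 fell by 13.3% in mean FPKM (-0.21 on the log2 scale, SE 0.0381, limma adjusted p = 0.0127). It was the only member called in all 16 alternative analyses, with a limma adjusted p of 0.0123 to 0.0457. Eif4ebp3, a related binding protein, had 5.02, 5.44 and 5.04 FPKM in the S37A libraries and 6.93, 6.46 and 6.28 FPKM in the vector libraries. It fell by 21.2% (-0.29, SE 0.0512, limma adjusted p = 0.0111), and lost its call without S37A replicate 3 (limma adjusted p = 0.0518, within 0.0101 to 0.0518 over the alternatives). The third family member, Eif4ebp2, overlapped between groups with 13.5, 12.1 and 12.1 FPKM in the S37A libraries and 13.6, 13.4 and 13.4 FPKM in the vector libraries (limma adjusted p = 0.169). Summed over the 3 genes, the binding proteins amounted to 196, 207 and 207 FPKM in the S37A libraries and 231, 236 and 237 FPKM in the vector libraries. Eif4enif1 encodes 4E-T, which carries eIF4E into the nucleus and to sites of messenger RNA storage, and lies at chr11:3202392-3244588 (mm10, plus strand). Its level was 11.5, 11.7 and 11.6 FPKM in the S37A libraries and 13.6, 13.3 and 13.3 FPKM in the vector libraries, and it fell by 13.5% (-0.19, SE 0.0335, limma adjusted p = 0.011). That call was lost under median-ratio scaling (0.0503), without S37A replicate 3 (0.0514) and when the most abundant transcript model replaced the sum (0.166), all limma adjusted p, within 0.00848 to 0.166. Mir3470a overlaps the Eif4enif1 locus, and the library kit does not mark strand, so reads from bases that overlapping genes share cannot be told apart.

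Of the cap-binding proteins themselves, limma called 0 of 3, with 2 lower at an unadjusted p under 0.05, a mark that 32.4% of all genes passed downward. Eif4e, the main cap-binding protein, had 28.5, 29.9 and 31.2 FPKM in the S37A libraries and 32.2, 33.5 and 32.4 FPKM in the vector libraries with no overlap (limma adjusted p = 0.06). Eif4e2, which binds the cap in a repressive complex and had the highest level of this group, had 41.4, 45.3 and 43.7 FPKM in the S37A libraries and 41.3, 41.2 and 44.1 FPKM in the vector libraries (limma adjusted p = 0.52). Eif4e3, a low-level relative, was at 2.20, 2.13 and 2.24 FPKM in the S37A libraries and 2.28, 2.72 and 2.75 FPKM in the vector libraries (limma adjusted p = 0.0891). The Eif4e3 groups did not overlap, while those of Eif4e2 did. There were 6.22, 6.36 and 6.09 FPKM of Eif4ebp1 per FPKM of Eif4e in the S37A libraries and 6.53, 6.45 and 6.70 in the vector libraries. These ratios did not overlap, and an exact permutation test gave p = 0.1, or 0.175 after adjustment over the 7 sums and ratios compared among related members.

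On FPKM as deposited, genes listed under the ternary complex and start codon selection had negative differences in 11 of 11 members, beside 69.5% of all genes. Of these members 4 were called lower (36.4%, beside 19.9%). Eif1ad was listed with them by its eIF1A domain, and a role in start codon selection was not tested. Eif1b, a close relative of the start-codon fidelity factor Eif1, lies at chr9:120492232-120495330 (mm10, plus strand). It had 22.3, 22.8 and 24.9 FPKM in the S37A libraries and 27.3, 27.9 and 25.97 FPKM in the vector libraries and fell by 13.7% (-0.21, SE 0.0503, limma adjusted p = 0.0264, 0.0234 to 0.0927 over the alternatives). Eif1, the highest of this group, overlapped between the groups with 161, 180.0 and 178 FPKM in the S37A libraries and 172, 187 and 187 FPKM in the vector libraries (limma adjusted p = 0.323). Per FPKM of Eif1 there were 0.139, 0.127 and 0.140 FPKM of Eif1b in S37A and 0.158, 0.149 and 0.139 in vector, and these ratios overlapped (exact permutation p = 0.2, adjusted 0.28). Eif1ad, which encodes an eIF1A domain protein at chr19:5366741-5371526 (mm10, plus strand), had 8.29, 8.25 and 8.34 FPKM in the S37A libraries and 9.87, 11.2 and 9.85 FPKM in the vector libraries and fell by 19.4% (-0.28, SE 0.0524, limma adjusted p = 0.0134). The Eif1ad call was lost without S37A replicate 3 (limma adjusted p = 0.0537, within 0.0115 to 0.0537). The locus overlaps Banf1, and reads from bases that both genes share cannot be told apart. How many bases these are was not measured. Eif1a and Eif1ax, a paralog pair for the eIF1A scanning factor, were not called. Eif1a had 72.2, 69.7 and 73.9 FPKM in the S37A libraries and 71.2, 75.1 and 71.9 FPKM in the vector libraries (limma adjusted p = 0.775). Eif1ax had 75.2, 86.1 and 80.3 FPKM in the S37A libraries and 74.8, 92.6 and 84.8 FPKM in the vector libraries (limma adjusted p = 0.613), and both pairs of groups overlapped.

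Eif5, the factor that makes eIF2 hydrolyse its GTP at the start codon, lies at chr12:111538016-111546752 (mm10, plus strand). Its level was 79.8, 79.9 and 78.9 FPKM in the S37A libraries and 87.5, 94.1 and 85.96 FPKM in the vector libraries, so that every S37A library was lower. Eif5 fell by 10.9% (-0.16, SE 0.0402, limma adjusted p = 0.0271, 0.0268 to 0.157 over the alternatives), and Snora28 lies within the locus. The remaining members of the group that were not called were Eif2s1, Eif2s2 (the beta subunit of eIF2), Eif2s3x and Eif5b (which joins the ribosomal subunits), with differences between -0.15 for Eif2s1 and -0.05 for Eif2s3x. Eif2s1, the alpha subunit that the eIF2 kinases phosphorylate, did not overlap between groups with 34.8, 36.1 and 36.1 FPKM in the S37A libraries and 37.5, 42.4 and 39.04 FPKM in the vector libraries (limma adjusted p = 0.0605).

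The gamma subunit of eIF2 is encoded by a gene pair on the sex chromosomes, Eif2s3y and Eif2s3x, whose coding transcripts were 82.0% identical over 1676 aligned bases. The RefSeq sequence around each start (GRCm38.p6), from 150 bases before the first transcribed base, is shown because the 2 genes differ in their call; capitals mark the longest run that both windows share. The windows lie at chrY:1010445-1010624 (plus strand) and chrX:94212622-94212801 (minus strand).
Eif2s3y: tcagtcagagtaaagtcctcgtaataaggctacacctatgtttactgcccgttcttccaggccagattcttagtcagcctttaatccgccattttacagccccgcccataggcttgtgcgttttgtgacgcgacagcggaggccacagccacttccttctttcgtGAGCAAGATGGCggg
Eif2s3x: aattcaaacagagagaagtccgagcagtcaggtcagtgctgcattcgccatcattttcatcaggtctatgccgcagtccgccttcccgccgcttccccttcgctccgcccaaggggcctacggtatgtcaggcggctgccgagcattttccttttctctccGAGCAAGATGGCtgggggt
Eif2s3y had 36.2, 34.99 and 35.3 FPKM in the S37A libraries and 40.1, 41.4 and 39.2 FPKM in the vector libraries, and the groups did not overlap. It fell by 11.7% (-0.18, SE 0.0345, limma adjusted p = 0.0151), with losses of the call under median-ratio scaling (0.095) and without S37A replicates 2 (0.0567) and 3 (0.0609), within 0.0143 to 0.095, all limma adjusted p. Eif2s3x had 39.5, 40.6 and 42.3 FPKM in the S37A libraries and 42.3, 41.2 and 42.8 FPKM in the vector libraries, which overlapped (limma adjusted p = 0.379). Per FPKM of Eif2s3x there were 0.915, 0.863 and 0.836 FPKM of Eif2s3y in S37A and 0.947, 1.004 and 0.916 in vector. The 2 sets of ratios only just did not overlap (exact permutation p = 0.1, adjusted 0.175), so a difference between the X and Y copies was not established.

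The eIF2B subunits, which return eIF2 to its GTP-bound form, had 0 of 5 members called by limma, with 2 lower at an unadjusted p under 0.05 (all genes 32.4%). Eif2b2, the highest of them and the beta subunit, had 43.7, 48.3 and 47.8 FPKM in the S37A libraries and 42.2, 40.8 and 45.5 FPKM in the vector libraries, with overlapping groups and a positive difference of 0.12 (limma adjusted p = 0.143). It was called higher under median-ratio scaling (0.20, limma adjusted p = 0.041). Eif2b1 and Eif2b5 had differences of -0.14 and -0.11, Eif2b3 and Eif2b4 of 0.03 and -0.01. Of the alternative tRNA-delivery factors, Eif2d had 20.1, 22.1 and 22.3 FPKM in the S37A libraries and 20.9, 21.8 and 23.1 FPKM in the vector libraries (limma adjusted p = 0.73), and the mean level of Eif2a was 21.6 FPKM (limma adjusted p = 0.767).

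Among the 4 kinases of eIF2 alpha, 1 was called lower, beside 19.9% of all genes. Eif2ak1, the heme-regulated kinase HRI at chr5:143817788-143904251 (mm10, plus strand), was the highest with 19.3, 19.1 and 19.5 FPKM in the S37A libraries and 20.9, 20.98 and 21.03 FPKM in the vector libraries. It fell by 7.97% (-0.11, SE 0.031, limma adjusted p = 0.0353), and lost its call under 10 of 16 alternatives, with limma adjusted p up to 0.439. Its locus overlaps Aimp2 and Ankrd61. Eif2ak2, the double-stranded RNA kinase PKR, and Eif2ak3, the endoplasmic reticulum kinase PERK, overlapped between groups with differences of -0.01 and 0.12. Eif2ak4, the amino acid sensor GCN2, had 5.55, 5.72 and 5.75 FPKM in the S37A libraries and 5.72, 5.52 and 5.77 FPKM in the vector libraries in all (limma adjusted p = 0.985).

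Eif2ak4 has 2 transcript models that begin at different places, and their RefSeq windows from GRCm38.p6, chr2:118388467-118388646 (plus strand) and chr2:118388962-118389141 (plus strand), are shown since the differences of the 2 models had opposite signs; capitals mark the transcribed bases.
Eif2ak4 upstream start: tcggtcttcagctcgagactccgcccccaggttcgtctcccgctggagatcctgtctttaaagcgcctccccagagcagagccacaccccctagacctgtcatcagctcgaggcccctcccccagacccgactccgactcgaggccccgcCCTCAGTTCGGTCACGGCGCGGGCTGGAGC
Eif2ak4 downstream start: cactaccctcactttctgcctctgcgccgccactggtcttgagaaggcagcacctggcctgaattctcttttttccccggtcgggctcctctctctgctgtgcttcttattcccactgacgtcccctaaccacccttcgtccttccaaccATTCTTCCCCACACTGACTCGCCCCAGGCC
The model from the upstream start, 5213 bases long, had 3.25, 2.77 and 2.53 FPKM in the S37A libraries and 3.82, 4.11 and 3.60 FPKM in the vector libraries, a difference of -0.33 (limma adjusted p = 0.0669). The model from the downstream start, 4909 bases long, had 2.30, 2.95 and 3.22 FPKM in the S37A libraries and 1.90, 1.42 and 2.17 FPKM in the vector libraries, a difference of 0.44 (limma adjusted p = 0.104). Neither was called, although neither overlapped between groups. The upstream model made up 58.6%, 48.4% and 44.0% of the gene's FPKM in the S37A libraries and 66.8%, 74.4% and 62.3% in the vector libraries. A test of unequal change among the models of a gene (limma diffSplice) gave an adjusted p of 0.0677 for Eif2ak4, from 0.0226 without S37A replicate 1 to 0.24 over the alternatives.

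The 14 symbols of eIF3, the scaffold that binds the small ribosomal subunit, included 2 lower calls (14.3%, beside 19.9% of all genes). Eif3c, a core subunit at chr7:126546455-126566411 (mm10, minus strand), had 112, 112 and 112 FPKM in the S37A libraries and 121, 135 and 127 FPKM in the vector libraries and fell by 12.1% (-0.18, SE 0.0436, limma adjusted p = 0.0247, 0.0128 to 0.112 over the alternatives). Eif3g, an RNA-binding subunit at chr9:20894349-20898623 (mm10, minus strand), had 85.1, 95.9 and 88.9 FPKM in the S37A libraries and 96.7, 113 and 105 FPKM in the vector libraries and fell by 14.2% (-0.22, SE 0.0647, limma adjusted p = 0.0453). Both groups of libraries were separate in both genes, but Eif3g lost its call under 11 of 16 alternatives, with limma adjusted p up to 0.134. Eif3k, the highest subunit, had 155, 179 and 163 FPKM in the S37A libraries and 180.2, 188 and 184 FPKM in the vector libraries with no overlap (limma adjusted p = 0.0673). The other subunits that were not called and did not overlap were Eif3a, Eif3b and Eif3h, with differences of -0.11, -0.12 and -0.08, besides Eif3j2. Differences ran from -0.13 for Eif3d to -0.02 for Eif3m in Eif3d, Eif3e, Eif3f, Eif3i, Eif3l and Eif3m, whose groups overlapped.

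Eif3j1 and Eif3j2, encoding the loosely bound eIF3j subunit, were listed at almost the same place on chromosome 2. GENCODE M21 places its Eif3j2 gene on another chromosome, and the transcript of that gene was the one aligned. It was 99.4% identical to the Eif3j1 transcript over 2379 aligned bases. The identity of the 2 listed models was not measured. Since these models lie at almost the same place, fragments can be split between them in different ways, and the single values are uncertain. Eif3j1 was listed at 0, 6.94 and 19.0 FPKM in the S37A libraries and at 0 in all 3 vector libraries. Eif3j2 had 35.1, 30.4 and 19.1 FPKM in the S37A libraries and 36.2, 38.5 and 38.8 FPKM in the vector libraries. The sum of the 2 was 35.1, 37.4 and 38.1 FPKM in S37A and 36.2, 38.5 and 38.8 FPKM in vector, which overlapped (-0.04, SE 0.0445, limma adjusted p = 0.553). Eif3j1 was called higher without S37A replicate 1 (limma adjusted p = 0.00836, 0.00836 to 0.219 over the alternatives), the library in which it was at 0.

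The eIF3 promoters of Eif3c and Eif3g are shown with that of Eif1b as examples of called genes with the motif most frequent among member promoters, the ETS core CCGGAAG on either strand; capitals mark this motif and the E-box CACGTG. The motif was held by 7 of 10 called members with a window and by 9 uncalled ones, of 43 members with windows in all. By window it stood in 8 of 18 windows of called members and in 19 of all 56 member windows. Members with more windows had more places for a match, and a share by gene over all genes was not computed. Among the uncalled ones were the eIF3 genes Eif3d, Eif3l and Eif3m. Whether the motif bears on the calls was not tested. The RefSeq windows (GRCm38.p6) lie at chr7:126566337-126566516 (minus strand), chr9:20898561-20898740 (minus strand) and chr9:120492456-120492635 (plus strand).
Eif3c: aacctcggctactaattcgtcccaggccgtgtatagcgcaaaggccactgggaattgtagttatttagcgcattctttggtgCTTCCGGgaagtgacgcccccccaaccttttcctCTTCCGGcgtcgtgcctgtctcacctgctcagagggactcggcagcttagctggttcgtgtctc
Eif3g: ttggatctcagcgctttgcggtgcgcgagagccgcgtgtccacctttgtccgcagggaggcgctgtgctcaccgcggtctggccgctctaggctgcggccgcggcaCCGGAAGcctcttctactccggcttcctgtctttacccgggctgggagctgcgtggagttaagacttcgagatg
Eif1b: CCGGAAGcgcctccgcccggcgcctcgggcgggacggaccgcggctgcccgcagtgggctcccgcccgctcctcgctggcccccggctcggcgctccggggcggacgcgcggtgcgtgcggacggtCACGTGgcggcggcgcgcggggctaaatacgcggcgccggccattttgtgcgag
RefSeq promoters of 300 bases matched 43 of the 55 members and 10 of the 12 called ones. They made up 56 windows, some of which overlap within a gene, 18 of them from called members. Genes with several windows weigh more in the shares below. CCGGAAG stood in 33.9% of member windows, beside 17.4% of windows of all genes tested and 8.9% of all windows. CACGTG stood in 21.4% of member windows, beside 10.0% and 7.2%. The TCF/LEF letters CTTTGAT or CTTTGAA, the motif of the factors that β-catenin binds, stood in 3.6% of member windows, those of Eif3g (outside the 180 bases shown) and Eif3l, beside 5.8% of windows of all genes tested and 8.7% of all windows. CCAAT stood in 26.8%, 37.3% and 37.4%, TATAAA in 7.1%, 7.2% and 13.6%, and TGACGTCA in 0 of 56 member windows. Each search covered both strands, and a match is a description of letters only.

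The helicase group had 1 lower call of 5 (20.0%, beside 19.9% of all genes). Eif4b, the cofactor that raises the activity of the eIF4A helicase, lies at chr15:102073773-102097173 (mm10, plus strand) and had 58.6, 63.4 and 61.5 FPKM in the S37A libraries and 66.3, 69.6 and 69.9 FPKM in the vector libraries. It fell by 10.8% (-0.16, SE 0.0408, limma adjusted p = 0.0277, 0.0253 to 0.137 over the alternatives). Eif4a1, the most abundant helicase gene, overlapped with 147, 156 and 153 FPKM in the S37A libraries and 148, 154 and 166 FPKM in the vector libraries (limma adjusted p = 0.615). Eif4a2 was lower in every S37A library with 76.5, 76.98 and 74.9 FPKM in the S37A libraries and 79.97, 82.4 and 79.2 FPKM in the vector libraries, but was not called (limma adjusted p = 0.0954). Eif4a3, the exon junction paralog, had 29.4, 30.7 and 29.5 FPKM in the S37A libraries and 32.1, 30.6 and 30.8 FPKM in the vector libraries (limma adjusted p = 0.25). Eif4h, another helicase cofactor, had a difference of -0.07. Eif4a2 per Eif4a1 overlapped between groups, 0.501 ± 0.0172 in S37A and 0.517 ± 0.0347 in vector (SD, n = 3 each, exact permutation p = 0.5).

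The eIF4G scaffolds, which link the cap to the ribosome, had 0 of 3 called by limma, with 1 lower at an unadjusted p under 0.05 (all genes 32.4%). Eif4g2, a cap-independent relative and the highest of them, had 149.6, 144 and 147 FPKM in the S37A libraries and 149, 168 and 154 FPKM in the vector libraries (limma adjusted p = 0.176). Eif4g1 had 129, 125 and 126 FPKM in the S37A libraries and 129.6, 135 and 131 FPKM in the vector libraries (limma adjusted p = 0.202). Eif4g3 had 30.7, 30.6 and 30.6 FPKM in the S37A libraries and 32.2, 34.97 and 32.9 FPKM in the vector libraries (limma adjusted p = 0.0581), and neither Eif4g1 nor Eif4g3 overlapped between groups.

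Eif5a encodes a hypusine-containing factor that helps the ribosome make difficult peptide bonds; it lies at chr11:69916714-69921958 (mm10, minus strand) and had the highest level of all members. Its level was 446, 474 and 473 FPKM in the S37A libraries and 489, 544 and 542 FPKM in the vector libraries, and it fell by 11.6% (-0.18, SE 0.0512, limma adjusted p = 0.0423), with limma adjusted p of 0.0137 to 0.181 and a lost call in 9 of 15 alternatives. Its paralog Eif5a2 had the lowest level of the tested members, 2.23, 2.14 and 2.24 FPKM in the S37A libraries and 2.21, 2.27 and 2.24 FPKM in the vector libraries (limma adjusted p = 0.809). Eif6, which keeps the ribosomal subunits apart, had -0.12 (limma adjusted p = 0.192). Per 1 FPKM of Eif5a there was 0.00475 ± 0.000236 FPKM of Eif5a2 in S37A and 0.00427 ± 0.00021 in vector, with no overlap (SD, n = 3 each, exact permutation p = 0.1, adjusted 0.175).

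**Figure D3:**
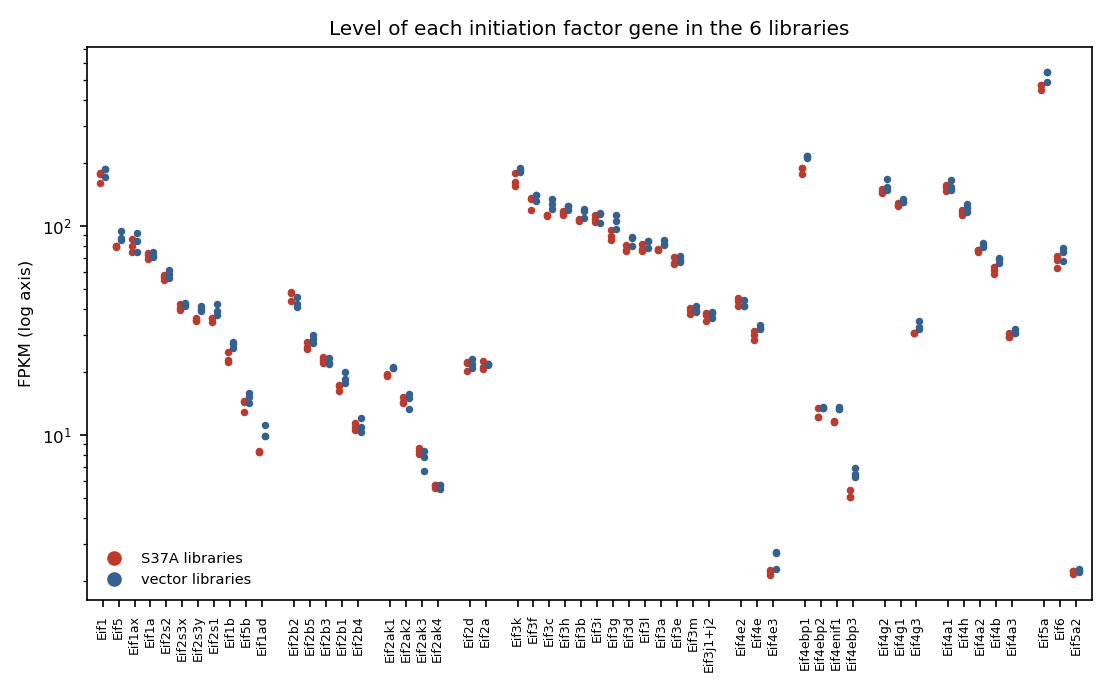
FPKM of each initiation factor gene in the 6 libraries on a log axis, grouped by role, with S37A points left of vector points; Eif3j1 and Eif3j2 are summed and Eif4e1b, listed at 0, is not drawn. Mean levels run from 2.22 FPKM for Eif5a2 to 495 FPKM for Eif5a.

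At the level of single transcript models, 66 of the 90 models were tested, 5 were called lower and 0 higher, beside 5.29% lower and 2.62% higher of all 14550 models tested (limma, 2 higher and 22 lower at an unadjusted p under 0.05, beside 8.12% and 23.2% of all models). The 5 were the single models of Eif4ebp1, Eif4ebp3, Eif1ad and Eif2s3y, and 1 of the 4 models of Eif4a2. That Eif4a2 model, 2229 bases long, had 13.9, 15.3 and 14.1 FPKM in the S37A libraries and 17.1, 18.8 and 19.9 FPKM in the vector libraries, below vector in every library (-0.34, limma adjusted p = 0.0399, 0.0251 to 0.130 over the alternatives). Eif4a2's test of unequal change gave an adjusted p of 0.679 (limma diffSplice). The longest of 3 Eif4e2 models, 3394 bases, had 8.66, 10.02 and 10.1 FPKM in the S37A libraries and 7.63, 6.74 and 7.64 FPKM in the vector libraries, a difference of 0.34 (limma adjusted p = 0.0521). Of the 7 members with at least 2 tested models, 0 were called for unequal change, beside 2.24% of all 2057 genes tested, which does not show that their models changed alike; 2 had an unadjusted p under 0.05, Eif2ak4 (0.00221) and Eif4e2 (0.0113, limma diffSplice adjusted 0.137).

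**Figure D4:**
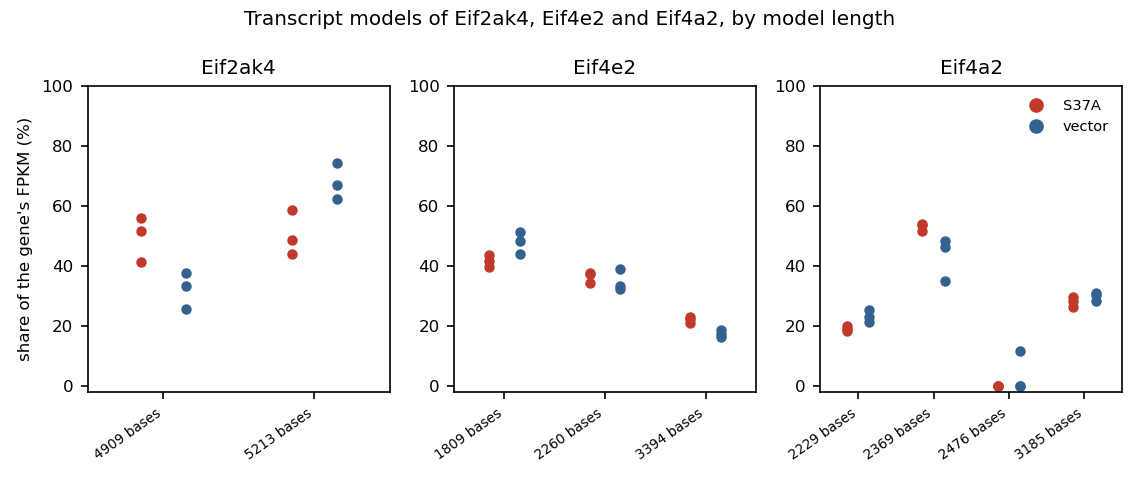
Share of the FPKM of Eif2ak4, Eif4e2 and Eif4a2 in each of their transcript models, in percent, for each S37A library (left) and vector library (right), models named by their length. The 5213-base model of Eif2ak4 lies between 44.0% and 58.6% in S37A and between 62.3% and 74.4% in vector.

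The level of the other genes of the pathway was read from a list of 47 translation partners. Of 46 tested, 0 were called higher and 7 lower (15.2%, beside 19.9% of all genes), with a median difference of -0.07, as over all genes. At an unadjusted p under 0.05 in limma, 3 of the 46 were higher and 16 lower, beside 10.3% and 32.4% of all genes. Pabpc1, the main cytoplasmic poly(A)-binding protein, which bridges to eIF4G, had 215, 217 and 215 FPKM in the S37A libraries and 239, 259 and 250.0 FPKM in the vector libraries (-0.21, limma adjusted p = 0.0121). Its partner Paip1 had 15.01, 14.5 and 14.8 FPKM in the S37A libraries and 16.3, 18.1 and 16.9 FPKM in the vector libraries (-0.20, limma adjusted p = 0.0224). Paip2b, an inhibitor of Pabpc1, had 9.25, 9.15 and 8.88 FPKM in the S37A libraries and 9.77, 11.01 and 10.6 FPKM in the vector libraries (-0.18, limma adjusted p = 0.0354). All S37A libraries were lower than the vector libraries in these 3 genes. Impact, which keeps GCN2 from its activator, had 49.3, 47.95 and 47.8 FPKM in the S37A libraries and 61.7, 58.3 and 54.6 FPKM in the vector libraries (-0.26, limma adjusted p = 0.0123). Ppp1r15a encodes GADD34, which directs dephosphorylation of eIF2 alpha, overlaps Tulp2 and had 78.3, 79.7 and 77.8 FPKM in the S37A libraries and 88.5, 94.7 and 88.6 FPKM in the vector libraries (-0.20, limma adjusted p = 0.0125). Pelo, a ribosome rescue factor within the locus of Itga1, had 11.3, 12.9 and 11.2 FPKM in the S37A libraries and 13.5, 13.8 and 13.4 FPKM in the vector libraries (-0.19, limma adjusted p = 0.0447). Over the 16 alternatives Pelo lost its call in 12, Paip2b in 11 and Paip1 in 6, with limma adjusted p up to 0.17, 0.15 and 0.091, while Pabpc1, Impact and Ppp1r15a each lost it in 1. In Impact, Ppp1r15a and Pelo, too, every S37A library was below every vector library. These 6 genes were picked by their calls on the same libraries, so their separation adds no support. Among all 46 partners tested, S37A lay wholly below in 20 (43.5%) and wholly above in 4 (8.7%), beside 36.5% and 11.3% of all genes. The seventh, Gcn1l1, the activator of GCN2, had a difference of -0.14 (limma adjusted p = 0.0483). Elongation factors, mTOR pathway regulators of eIF4F and other helicases had 0 called by limma of 7, 11 and 6, with 2, 2 and 2 lower and 0, 1 and 1 higher at an unadjusted p under 0.05. Without S37A replicate 3, 0 partners were called lower, beside 547 of the 12022 genes tested.

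The number of calls depended on how the libraries were scaled and on single libraries. Median-ratio scaling divided the S37A libraries by 0.961 to 0.982 and the vector libraries by 1.02 to 1.04. It moved the median difference of all genes to 0.00 and that of the members to -0.0074. Members with a negative difference then numbered 29 of 54, against 48 on FPKM as deposited. They numbered 40 of 54 with quantile normalization and 38 of 53 without the 100 most abundant genes. Median-ratio scaling left 3 members lower (Eif1ad, Eif4ebp1 and Eif4ebp3), beside 7.4% of all genes, and 1 higher (Eif2b2), beside 11.1%. Over all genes the calls were then 1335 higher and 890 lower, against 729 higher and 2393 lower on FPKM as deposited. Quantile normalization left 8 members lower and 0 higher, beside 7.96% and 9.1% of all genes. Without the 100 most abundant genes 8 members were lower and 0 higher, beside 12.6% and 7.55% of all genes. Sign changes among the 42 uncalled members numbered 19 with median-ratio scaling, 8 with quantile normalization and 9 when abundant genes were removed; the called members lay farther from 0 by selection, so their signs are not set against these. Without S37A replicate 3 the count of lower members was 2 (Eif1b and Eif4ebp1), beside 547 of all 12022 genes. Without S37A replicates 1 and 2 it was 5 and 6, beside 1338 and 809 of all genes. Without vector replicates 1, 2 and 3 it was 17, 7 and 7, beside 2406, 1190 and 1186 of all genes. The members' FPKM summed to 3489, 3686 and 3632 in the S37A libraries and 3722, 4000 and 3934 in the vector libraries, which did not overlap. These sums were 0.898%, 0.931% and 0.915% of all FPKM in S37A and 0.940%, 0.996% and 0.983% in vector. S37A replicate 1 was the lowest S37A library for 38 of the 54 members (70.4%, beside 47.1% of all genes). Vector replicate 1 was the lowest vector library for 36 of 54 (66.7%, beside 40.1%). In eIF3 these were 11 and 12 of 14 symbols.

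**Figure D5:**
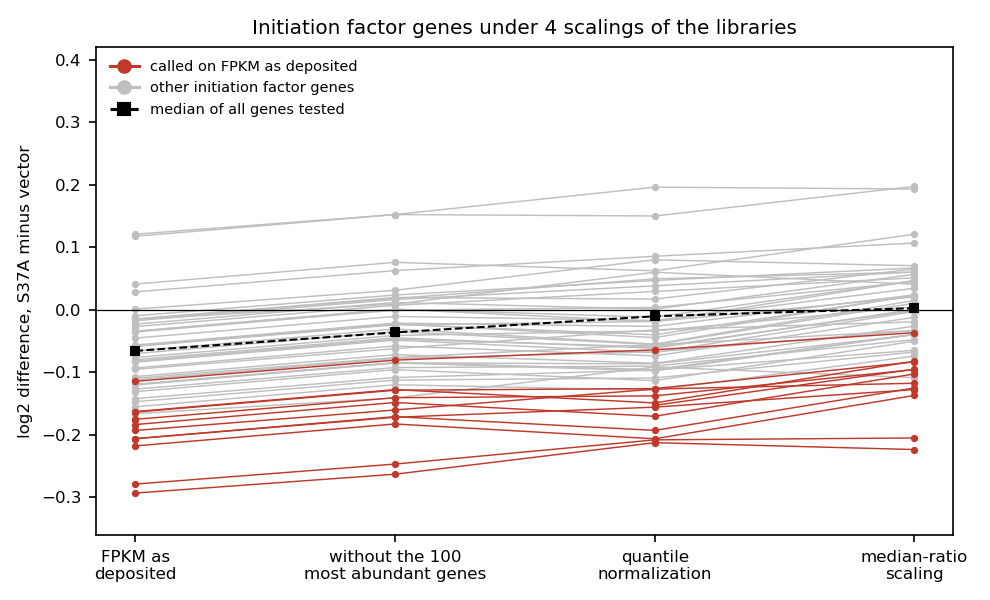
Log2 difference of each initiation factor gene, S37A minus vector, under 4 scalings of the libraries; red lines are the 12 genes called on FPKM as deposited, grey lines the others, and the dashed line is the median of all genes tested. The median is -0.07 on FPKM as deposited and 0.00 under median-ratio scaling; Eif3j1 and Eif3j2 are not drawn, nor is Eif5a without the 100 most abundant genes.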

How the data were processed

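RNA of 6 libraries, 3 S37A and 3 vector, was made into complementary DNA with a SMART-Seq v4 kit and sequenced on a HiSeq, per the labels' protocols; groups and replicate numbers came from the titles. The submitters' processing notes name bcl2fastq 1.8.3, TopHat, Cufflinks and the mm10 build. The deposited FPKM and its confidence bounds stand per transcript model, per the file headers. The deposited coverage, a signal per model, was used only to compare depth. FPKM was summed by symbol; 5 genes of failed status in a library, none of them members, were dropped.

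Tests used limma 3.58.1 in R 4.3.3, on log2 values of FPKM with 1 added, for the 12022 genes averaging 0.5 FPKM or more, with a trend on intensity and Benjamini-Hochberg adjustment over all genes at 0.05; differences are S37A minus vector and understate changes of low genes. Transcript models were tested likewise and with diffSplice. Other steps used Python 3.11.15 with scipy 1.17.1, and biopython 1.88 for alignments of the longest coding transcripts of GENCODE M21, which also gave gene positions (1-based); promoters are from RefSeq, GRCm38.p6. Members and lists were chosen with earlier results of these data known. Values in every library are given for members with an adjusted p under 0.05, the highest member of each role, listed paralogs (Eif3j1 and Eif3j2 among them) and the 6 called partners with the smallest p; Gcn1l1, the values per library of Eif2s1 and Eif2ak4 and the models of Eif2ak4, Eif4a2 and Eif4e2 were added after their values were seen.

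Alternatives were other pseudocounts, filters and scalings, no trend, a replicate block, removal of each library, the most abundant model in place of the sum and, added after the data were seen, Eif3j1 with Eif3j2. Fragment numbers, inferred from interval widths over full model lengths, cover counting error only. Each step that tests many genes or models was checked on simulated data with known changes.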

Additional observations from a re-analysis of the deposited data

How the results depend on the processing

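The 12 lower members kept their direction in each alternative that included them. Eif5a, among the 100 most abundant genes, had no value without these. The 12 had been called on these same libraries and lay farther from 0 by selection, so the kept direction is no independent support. Under median-ratio scaling 3 of them kept the call, and the members called were 3 lower and 1 higher. Counts over all genes were 1335 higher and 890 lower under that scaling, 1094 and 957 under quantile normalization, 442 and 1193 with the replicate block, and 1500 and 1472 lower without the 100 most abundant genes and with the most abundant model in place of the sum. Leaving out 1 library at a time gave 276 to 744 higher and 547 to 2406 lower genes, 0 to 1 higher and 2 to 17 lower members, 0 to 1 higher and 0 to 10 lower partners, 0 to 1 higher and 0 to 4 lower models, 0 to 1 members with unequal model change (Eif2ak4, without S37A replicate 1), and 0.28 to 0.40 for Ctnnb1. Higher partners numbered 5, 4 and 3 under median-ratio scaling, quantile normalization and without the 100 genes. Lower partners numbered 4 with no filter, 3 under median-ratio scaling, 3 under quantile normalization, 4 without the 100 genes, 3 with the replicate block and 4 with the most abundant model. Models numbered 1 higher at a 5 FPKM filter, under median-ratio scaling, under quantile normalization and without the 100 genes. Lower models numbered 0 with no filter, 10 at the 5 FPKM filter, 0 under median-ratio scaling, 2 under quantile normalization, 2 without the 100 genes, 2 with no trend and 0 with the replicate block. Eif2ak4 turned negative (-0.33, limma adjusted p = 0.0426) when its most abundant model, that of the upstream start, replaced the sum. The samples share only a replicate number: deviations of same-numbered libraries correlated at -0.12, 0.021 and 0.104, not every library correlated best with its own number, and the block left 9 members lower and 0 higher. A count model planned for whole reads was not run, since fragment numbers above 30 came out whole, within 0.02, for at most 9.75% of models. With 3 libraries a group, an uncalled member or model is not shown to be unchanged. The cause of the changes under other scalings was not tested.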
